A study of Mus musculus with 20 samples.

Results

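The 38 genes described here copy the genome during S phase or prepare the cell for it. They were taken by symbol from the array's annotation and make up 38 of the 19607 genes that the array measures with probe sets naming 1 gene. All 38 were found, with 531 probe sets (3 for Tyms to 49 for Pole), and all passed the filter on low signal in every fit. The samples were 20 mouse arrays of thymocytes (T cells developing in the thymus) and of thymic tumours, all on a C57BL/6 background. Gfi1, the gene removed in the KO groups, codes for a transcriptional repressor with zinc fingers that is active in blood stem cells, myeloid precursors and T cells.

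The groups were KO Notch tumours (2 arrays) and WT Notch tumours (2), ENU tumours labelled Gfi1 KO (3) and WT ENU tumours (3), irradiated KO thymocytes (3) and irradiated WT thymocytes (3), and untreated KO thymocytes (2) and untreated WT thymocytes (2). Tumour mice carried floxed Gfi1 alleles (Gfi1f/f) in every group, and the KO mice in addition the Mx1Cre transgene, whose promoter responds to interferon and is active in many tissues, not T cells alone. All tumour mice received ENU, an alkylating mutagen, and those of the Notch groups also carried a Notch transgene. Once a mediastinal tumour was seen by ultrasound, the mice were given pIpC, an interferon inducer that switches on Mx1Cre, and cells were explanted 2 to 3 weeks later. How the KO thymocytes lost Gfi1, and the dose and timing of the radiation, are not given in the sources read. Nothing in the labels says that arrays of 1 group came from separate mice, so p-values measure the spread between these samples, which may be technical.

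Replication begins when the origin recognition complex, CDC6 and CDT1 load the MCM2 to MCM7 helicase onto origins. At S phase entry, cyclin E with CDK2 helps to activate it together with the GINS complex, and the clamp PCNA, loaded by the RFC complex, then holds the polymerases on the template. Many of these genes are transcribed late in G1 by E2F factors, once cyclin-dependent kinases have released the RB proteins from them. In the thymus, proliferation is concentrated in immature cells that have just passed a checkpoint for the T cell receptor beta chain, while most CD4 CD8 double-positive cells are small and resting.

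E2F binding is the promoter feature best known for this set, and 3 promoters are shown because they carry it in different forms and belong to members that rose after irradiation. Windows from 250 bases before to 50 bases after the annotated start were taken from RefSeq (GRCm38.p6), which gave 37 windows for 31 of the 38 members. Capitals mark matches to TTTGGCGC, TTTCCCGC, TTTGCCGC or TTTCGCGC on either strand.
Mcm5, chr8:75109259-75109558 (+ strand): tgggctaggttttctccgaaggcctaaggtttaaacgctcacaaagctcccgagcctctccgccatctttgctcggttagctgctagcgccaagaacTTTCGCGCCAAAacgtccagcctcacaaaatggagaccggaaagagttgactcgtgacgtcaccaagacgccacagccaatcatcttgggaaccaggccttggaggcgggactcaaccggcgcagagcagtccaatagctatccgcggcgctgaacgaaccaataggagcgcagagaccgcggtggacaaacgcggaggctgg
Mcm6, chr1:128359656-128359955 (- strand): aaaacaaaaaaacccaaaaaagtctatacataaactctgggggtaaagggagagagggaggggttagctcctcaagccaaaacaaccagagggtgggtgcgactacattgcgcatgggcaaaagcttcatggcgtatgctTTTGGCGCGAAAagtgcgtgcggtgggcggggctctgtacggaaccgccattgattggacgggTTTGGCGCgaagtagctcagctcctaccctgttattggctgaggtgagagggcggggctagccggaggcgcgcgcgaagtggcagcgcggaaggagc
Cdc6, chr11:98907901-98908200 (+ strand): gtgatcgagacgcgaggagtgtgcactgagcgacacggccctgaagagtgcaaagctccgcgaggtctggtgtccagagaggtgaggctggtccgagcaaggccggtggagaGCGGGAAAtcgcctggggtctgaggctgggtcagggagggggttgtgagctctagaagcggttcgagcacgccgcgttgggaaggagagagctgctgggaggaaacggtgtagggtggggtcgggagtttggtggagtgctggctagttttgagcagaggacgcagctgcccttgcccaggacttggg
Mcm5 and Mcm6 encode helicase subunits, and each holds a pair of overlapping matches on opposite strands, with first bases at -153 and -149 in Mcm5 and at -110 and -106 in Mcm6, counted from the start. Mcm6 has another match at -47, and Cdc6, the helicase loading factor, has 1 at -138. In all, 12 of the 31 members (38.7%) had at least 1 match, and 5 had 2 or more, against 2.6% of the 27025 genes with a window and 2.26% of their 32851 windows. The other 9 were Mcm3, Mcm7, Cdt1, Rfc3, Pola1, Pold1, Lig1, E2f2 and Uhrf1. TTTGAA, the core of an element found in promoters of mitosis genes, was in 9.68% of the members with a window, 69.2% of the 26 mitosis genes with one and 20.2% of all genes. CCAAT was in 58.1% of the members with a window, 76.9% of those mitosis genes and 41.1% of all genes. Among 54 other replication genes with a window, 33.3% had an E2F match, 55.6% CCAAT and 31.5% TTTGAA. An E2F match was in 3.85% of the mitosis genes. These letters describe the windows and were not tested for binding.

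Values are the deposited values read as log2 signal, and a gene's value on an array is the median of its probe sets after each was centred on its mean. Differences were tested with limma over all genes that passed the filter, adjusted by Benjamini-Hochberg and called under 0.05, and a ± b is a log2 difference with its standard error. In bulk RNA, fewer cells in S phase and less RNA of these genes per cell cannot be told apart. Gfi1 was checked first, on the second of its 8 probe sets in ID order. It read 5.62 to 5.67 in untreated KO against 11.83 to 12.07 in untreated WT thymocytes, and 6.31 to 7.10 in KO Notch tumours against 11.01 to 11.43 in WT Notch tumours. It was 10.70 to 11.01 in the ENU tumours labelled Gfi1 KO and 10.58 to 11.56 in WT ENU tumours. These libraries thus did not show the loss on probe set 2. On probe sets 1, 6 and 8 they lay below WT ENU tumours without overlap (9.02 to 9.37 against 9.50 to 10.12 on set 6). Their ranges overlapped those of WT on sets 3, 4, 5 and 7. These tumours are called by their label throughout. In irradiated KO thymocytes probe set 2 read 12.72 to 12.74 against 11.34 to 11.61 in irradiated WT. Probe set 6 read 6.88 to 7.57 in irradiated KO and 9.64 to 9.89 in irradiated WT thymocytes. Against WT, probe set 2 was thus higher in irradiated KO and lower in untreated KO thymocytes. Probe set 7 went the other way, with KO against WT means of 7.18 and 9.44 in irradiated and 11.09 and 9.89 in untreated thymocytes. Probe set 4 was lower in KO in both states (9.43 and 10.78 in irradiated, 8.95 and 11.19 in untreated), and probe set 1 was higher in both. The labels do not say whether irradiated and untreated KO thymocytes carry the same allele. The part of this in differences between them, and in KO minus WT differences of the irradiation response, was not tested.

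2 tumour arrays stood apart on the members. Labelled KO ENU tumour 1 was the lowest of its group for 38 of 38 members, and 31 of them lay below all 18 arrays other than these 2. KO Notch tumour 2 was the lower of its pair for 36 of 38, all but Ccne1 and E2f2, and 26 lay below those 18 arrays. Cell type markers differed on the same arrays. KO Notch tumour 2 was the highest of the 20 arrays for 9 of 9 B cell genes, with Cd79a at 13.76 (10.93 or less on those 18 arrays) and Ms4a1 at 12.89 (8.83 or less). It was also the lowest of 20 for 9 of 11 defining T cell genes, with Cd3e at 12.38 against 13.50 to 13.90 on those 18 arrays, which goes against its label as a thymocyte tumour. KO Notch tumour 2 was the highest of 20 for 6 of 13 macrophage and dendritic cell genes too, with Csf1r at 10.26 (8.93 or less on the 18 arrays). Labelled KO ENU tumour 1 was the highest of 20 for 7 of these 13, with C1qa at 11.19 (9.20 or less on the 18 arrays). Its 11 defining T cell genes all lay below their means over the 20 arrays (median -1.10). Cd8a at 10.96 and Cd3g at 12.79 lay below the 18 arrays, whose lowest values were 11.72 and 12.95. Cd3e at 13.62, Thy1 at 12.88 and Rag1 at 9.35 lay within the range of the 18 arrays. Labelled KO ENU tumour 1 was the lowest of 20 for 0 of the 11. The part of these cells in the members' levels was not tested. Counts and medians of the members in the tumour comparisons are given with and without both arrays, and the tests of single members and the counts of other lists with both.

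**Figure D1:**
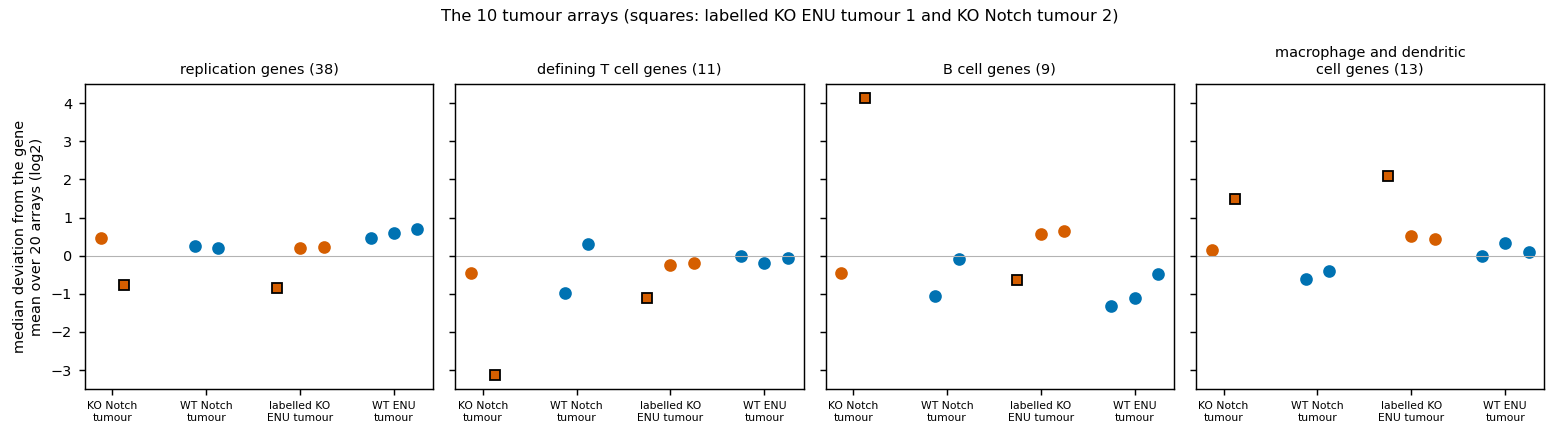
Each point is 1 tumour array, and the y axis gives the median over the genes of a list of their log2 deviation from their mean over the 20 arrays. Labelled KO ENU tumour 1 (-0.86) and KO Notch tumour 2 (-0.77), drawn as squares, are the lowest on the 38 replication genes, and KO Notch tumour 2 is the highest on B cell genes and the lowest on defining T cell genes.

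Across the 20 arrays the members' shared level, the median of their deviations from their own means, was highest in WT ENU tumours (0.45, 0.60 and 0.70) and, apart from the 2 low tumour arrays, lowest in untreated KO thymocytes (-0.52 and -0.46). Irradiated KO thymocytes (-0.10, -0.15 and -0.08) lay between untreated WT (-0.25 and -0.33) and irradiated WT thymocytes (0.09, 0.28 and 0.08), and these 3 groups did not overlap each other. WT Notch tumours (0.26 and 0.20) fell within the range of irradiated WT thymocytes. The mitosis genes were ordered differently. Irradiated KO thymocytes lay lowest but for KO Notch tumour 2, and within each genotype irradiated arrays lay below untreated ones, at -0.52, -0.50 and -0.53 in irradiated KO and -0.43, -0.15 and -0.35 in irradiated WT, against -0.15 and -0.18 in untreated KO and 0.11 and 0.00 in untreated WT thymocytes.

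**Figure D2:**
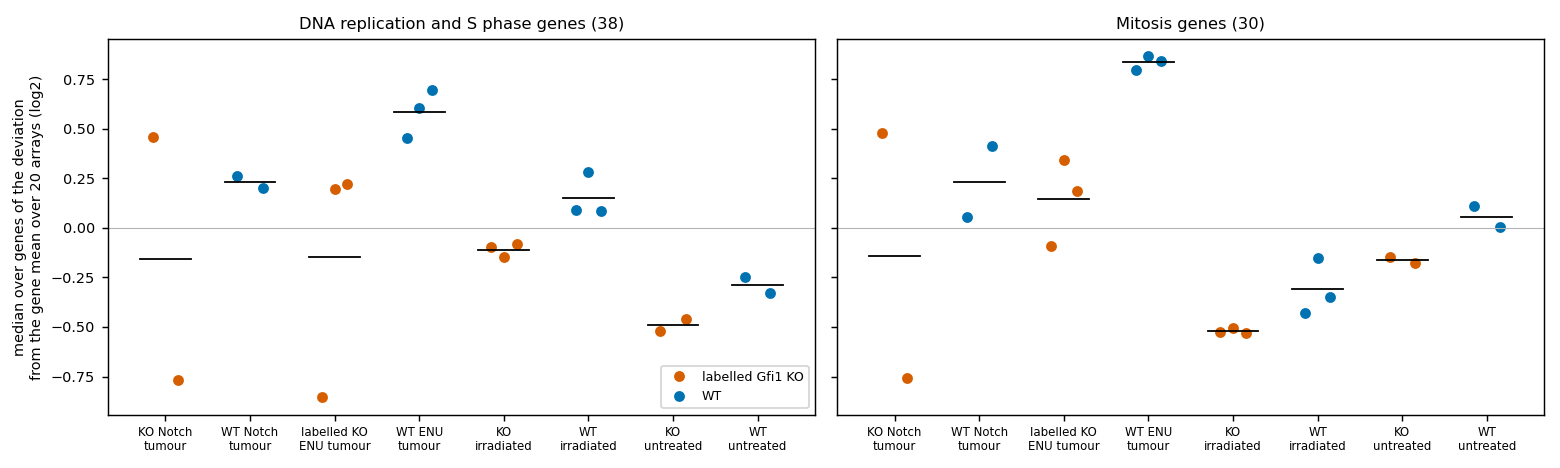
Each point is 1 array and each bar the mean of a group, and the y axis gives the median log2 deviation over the 38 replication genes (left) or 30 mitosis genes (right). Irradiated thymocytes are higher than untreated ones of the same genotype on the replication genes, and lower on the mitosis genes.

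Most members followed the shared level. As a description over the 20 arrays, which share large differences between kinds of cell, Pearson's r between a member and the median of the other 37 was highest for Mcm10 (0.98), which helps to start the helicase, Mcm3 (0.96) and Uhrf1 (0.96), which binds hemimethylated DNA behind the fork. It was lowest for E2f2 (0.03), an E2F factor, Rfc2 (0.26), a clamp loader subunit, and the cyclin E gene Ccne1 (0.59). Over the tumour arrays alone, the 2 low ones among them, r was 0.60 for E2f2, 0.67 for Rfc2, 0.56 for Ccne1 and 0.99 for Mcm10. E2f2 ranged over 2.51 log2 units and Mcm10 over 1.57. The 5 highest arrays for E2f2 were the WT thymocytes, irradiated or not (11.12 to 11.38).

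**Figure D3:**
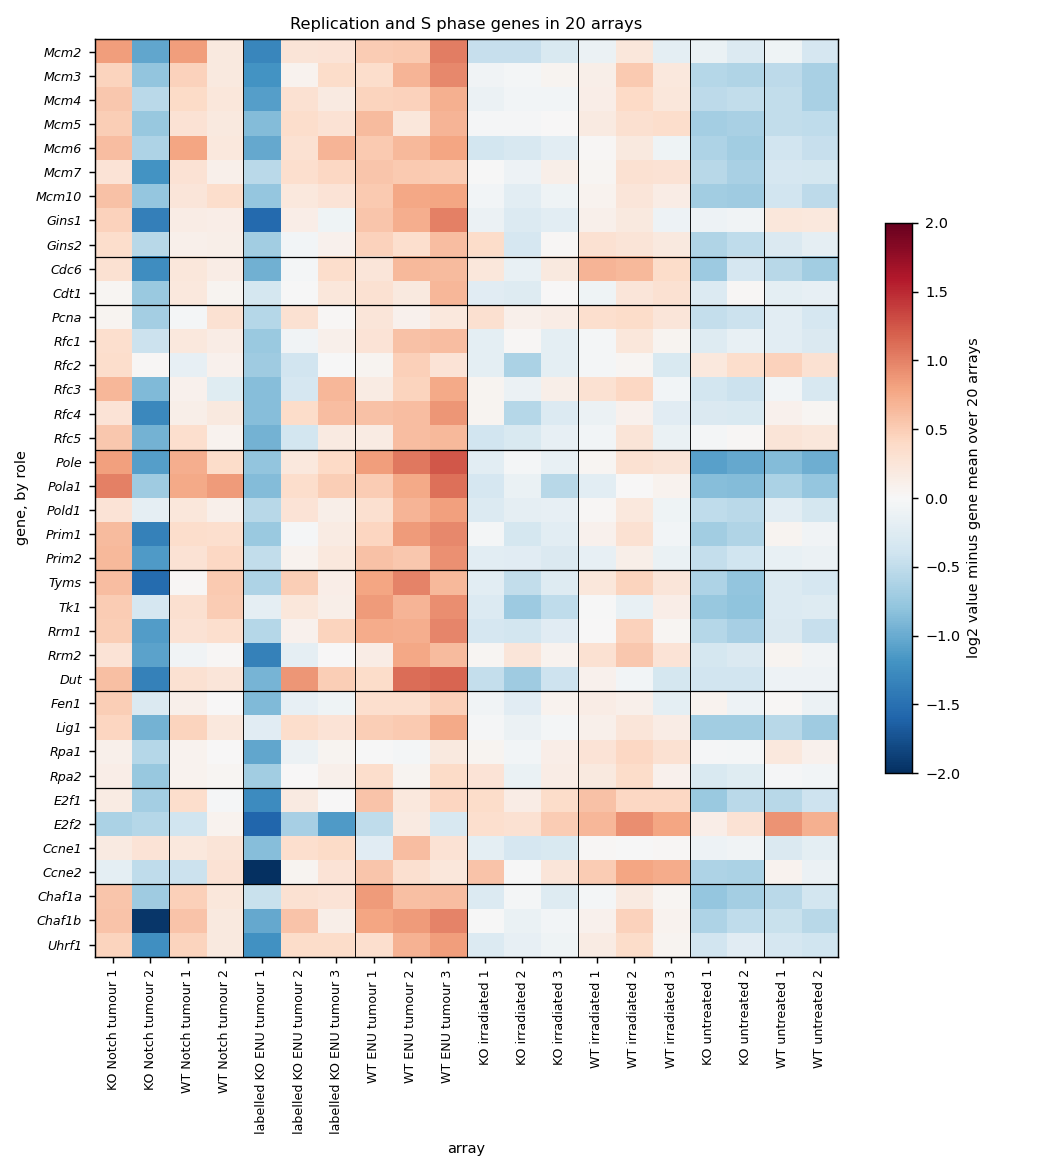
Rows are the 38 genes, split by lines into 8 roles, columns are the 20 arrays in 8 groups, and colour gives the log2 value minus the gene's mean over the 20 arrays, with the scale ending at -2 and 2. Labelled KO ENU tumour 1 and KO Notch tumour 2 are blue in nearly every row, and E2f2 is reddest in WT thymocytes.

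Irradiated thymocytes were compared with untreated ones in WT, with Gfi1 intact. The parts of radiation, of array processing and of other cells in the differences were not tested. Replication genes rose: 24 of 38 members were higher after irradiation and 1 was lower, where 13% of all genes tested were higher and 21.7% lower. The members' median difference was 0.43 and that of all genes -0.02, and for 28 of 38 every irradiated array lay above both untreated ones, as for 23.87% of genes. Cdc6, Pole, E2f1 and Mcm3 rose most, and Rfc2 fell by 0.48 ± 0.14. In 1 fit of all 20 arrays, which shares the larger spread of the tumours, no member passed for irradiation in either genotype.

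Most targets of p53, the factor that DNA damage activates, were also higher in irradiated thymocytes. Cdkn1a, which encodes the CDK inhibitor p21, rose by 2.74 ± 0.13 in WT and 1.83 ± 0.13 in KO thymocytes. Mdm2, which encodes the ligase that degrades p53, rose by 0.37 ± 0.11 and Ccng1, a cyclin G, by 0.99 ± 0.10 in WT. In KO, Mdm2 rose by 0.60 ± 0.11 and Ccng1 by 1.07 ± 0.10. Of 19 p53 targets tested, 15 rose in WT, and 16 rose and 1 fell in KO.

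Among the licensing factors, Cdc6 read 9.98, 9.95 and 9.66 in irradiated WT against 8.74 and 8.61 in untreated WT thymocytes. The groups did not overlap, and the rise of 1.19 ± 0.14 (limma adjusted p = 8.56e-06) was a 2.28-fold change if the values are base 2. Irradiated KO thymocytes had 9.52, 9.16 and 9.49 and untreated KO ones 8.57 and 8.96, a rise of 0.63 ± 0.14 (adjusted p = 0.00228). Cdt1, the partner of Cdc6 in loading and a protein destroyed once S phase begins, moved less. It read 10.56, 10.88 and 10.95 in irradiated WT against 10.45 and 10.48 in untreated WT, and 10.41, 10.39 and 10.65 in irradiated KO against 10.37 and 10.67 in untreated KO thymocytes. Its differences of 0.33 ± 0.13 in WT (adjusted p = 0.0583) and -0.04 ± 0.13 in KO did not pass.

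Of the 9 helicase genes, 7 rose in each genotype: Mcm3, Mcm4, Mcm5, Mcm6, Mcm7, Mcm10 and Gins2. Mcm3 read 10.66, 11.06 and 10.75 in irradiated WT against 10.03 and 9.89 in untreated WT thymocytes, a rise of 0.87 ± 0.12. Mcm5 had 11.57, 11.72 and 11.75 in irradiated WT against 10.90 and 10.89 in untreated WT (0.78 ± 0.10), and 11.37, 11.38 and 11.40 in irradiated KO against 10.71 and 10.75 in untreated KO thymocytes (0.65 ± 0.10). Gins2, a GINS subunit, rose by 0.48 ± 0.15 in WT and 0.58 ± 0.15 in KO. It read 10.42, 10.36 and 10.30 in irradiated WT against 9.83 and 9.94 in untreated WT, and 10.48, 9.77 and 10.14 in irradiated KO against 9.50 and 9.59 in untreated KO. Mcm2 and Gins1 did not follow the rest. Mcm2 read 10.97, 11.32 and 10.90 in irradiated WT against 11.00 and 10.75 in untreated WT, and 10.63, 10.63 and 10.79 in irradiated KO against 10.95 and 10.81 in untreated KO thymocytes. Its differences were 0.19 ± 0.13 in WT and -0.20 ± 0.13 in KO, and those of Gins1 were -0.16 ± 0.11 and -0.12 ± 0.11, none past the threshold.

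The clamp and its loader split. Pcna, the clamp, rose by 0.59 ± 0.10 in WT, with 12.98, 13.00 and 12.88 in irradiated against 12.42 and 12.30 in untreated thymocytes, and by 0.65 ± 0.10 in KO, with 12.97, 12.74 and 12.80 in irradiated against 12.16 and 12.21 in untreated ones. Pcna is itself a known p53 target, and the part of p53 in this rise was not tested. The loader subunit Rfc3 rose in both genotypes (0.41 ± 0.13 in each), and the large subunit Rfc1 rose in WT (0.33 ± 0.11), with 0.08 ± 0.11 in KO. Rfc2 fell, with 9.89, 9.97 and 9.64 in irradiated WT against 10.39 and 10.24 in untreated WT, and 9.74, 9.30 and 9.73 in irradiated KO against 10.15 and 10.29 in untreated KO thymocytes (-0.63 ± 0.14, adjusted p = 0.00187). Rfc4 and Rfc5 passed in neither, with differences from -0.27 to 0.03.

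Pole, the catalytic subunit of the leading strand polymerase, rose by 1.13 ± 0.11 in WT and 0.92 ± 0.11 in KO. It read 10.23, 10.49 and 10.45 in irradiated WT against 9.33 and 9.21 in untreated WT, and 9.97, 10.15 and 10.04 in irradiated KO against 9.10 and 9.17 in untreated KO thymocytes. Pola1 (0.66 ± 0.12 in WT, 0.52 ± 0.12 in KO), of the polymerase that works with primase, and Pold1 (0.34 ± 0.11 and 0.33 ± 0.11), of the lagging strand polymerase, rose in both. The small primase subunit Prim1 rose in KO (0.46 ± 0.12) and had 0.12 ± 0.12 in WT. On the lagging strand, the ligase Lig1 rose by 0.80 ± 0.10 in WT and 0.63 ± 0.10 in KO. Rpa2, a subunit of the protein that coats single-stranded DNA, rose in KO (0.37 ± 0.12) and had 0.26 ± 0.12 in WT. Fen1, the flap nuclease, Prim2, the large primase subunit, and Rpa1 had differences between -0.06 and 0.20, none past the threshold.

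Nucleotide supply rose in part. Tyms, thymidylate synthase, rose by 0.61 ± 0.11 in WT, with 11.23, 11.45 and 11.24 in irradiated against 10.73 and 10.67 in untreated thymocytes, and by 0.39 ± 0.11 in KO, with 10.80, 10.52 and 10.75 in irradiated against 10.39 and 10.22 in untreated ones. The ribonucleotide reductase subunit Rrm2 rose in both genotypes (0.38 ± 0.11 in WT, 0.44 ± 0.11 in KO). It read 12.10, 12.32 and 12.07 in irradiated WT against 11.85 and 11.72 in untreated WT, and 11.83, 12.03 and 11.86 in irradiated KO against 11.43 and 11.50 in untreated KO thymocytes. Its partner Rrm1 rose in WT (0.54 ± 0.13) and had 0.31 ± 0.13 in KO (adjusted p = 0.0621). Tk1, thymidine kinase, and Dut, which removes dUTP, passed in neither genotype, with differences from -0.16 to 0.28.

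Regulators of S phase entry differed from each other. E2f1, an activating E2F factor, rose by 0.96 ± 0.11 in WT and 0.94 ± 0.11 in KO. It read 9.78, 9.62 and 9.62 in irradiated WT against 8.64 and 8.78 in untreated WT, and 9.57, 9.36 and 9.57 in irradiated KO against 8.46 and 8.66 in untreated KO thymocytes. Its relative E2f2 read 11.12, 11.38 and 11.25 in irradiated WT against 11.36 and 11.17 in untreated WT, and 10.79, 10.76 and 10.96 in irradiated KO against 10.59 and 10.74 in untreated KO, with differences of -0.01 ± 0.11 and 0.17 ± 0.11. Of the genes for cyclin E, which drives CDK2 at S phase entry, Ccne2 rose in both. It read 10.62, 10.91 and 10.86 in irradiated WT against 10.20 and 10.004 in untreated WT (0.70 ± 0.14), and 10.68, 10.11 and 10.36 in irradiated KO against 9.50 and 9.49 in untreated KO thymocytes (0.89 ± 0.14). Ccne1 rose in WT, with 10.14, 10.11 and 10.14 in irradiated against 9.83 and 9.92 in untreated thymocytes (0.26 ± 0.10, adjusted p = 0.0432). This call was lost under 10 of 13 alternatives, the replicate block among them (adjusted p from 0.027 to 0.66). In KO it read 9.92, 9.78 and 9.81 in irradiated against 10.01 and 10.05 in untreated ones (-0.19 ± 0.10, adjusted p = 0.12). Of the chromatin genes, Chaf1a and Chaf1b, subunits of the histone chaperone CAF-1, rose in both, by 0.51 ± 0.11 and 0.70 ± 0.12 in WT and by 0.54 ± 0.11 and 0.50 ± 0.12 in KO. Uhrf1 rose by 0.56 ± 0.11 in WT, with 10.81, 11.01 and 10.70 in irradiated against 10.30 and 10.25 in untreated thymocytes, and had 0.14 ± 0.11 in KO, with 10.37, 10.48 and 10.56 in irradiated against 10.25 and 10.41 in untreated ones.

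**Figure D4:**
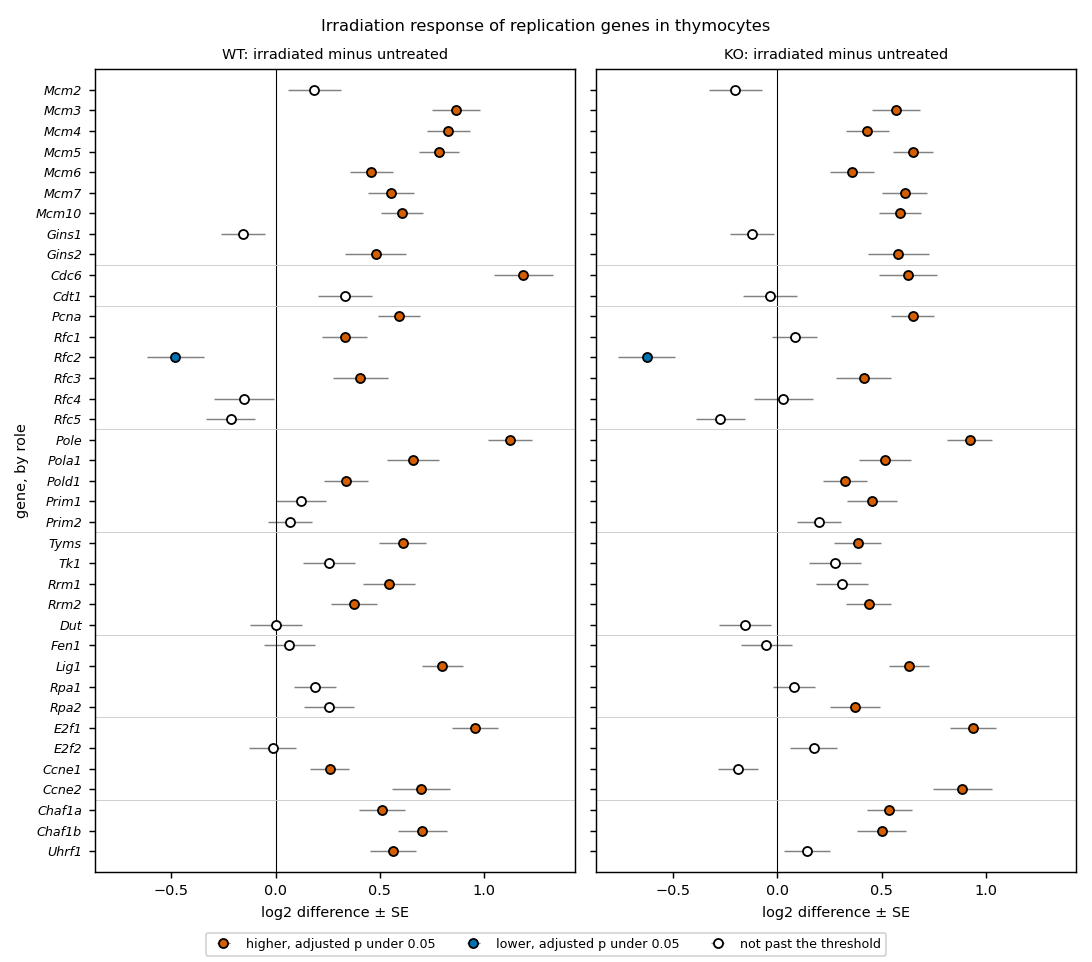
Points give each member's log2 difference between irradiated and untreated thymocytes with its standard error, in WT (left) and KO (right), ordered by role from the helicase at the top to chromatin genes at the bottom. Most members lie right of 0 in both genotypes, Rfc2 is the one called lower in each, and Cdc6 and Pole in WT extend furthest.

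In KO thymocytes 22 members rose after irradiation and 1, Rfc2, fell, where 15.1% of genes were higher and 23.7% lower, and their median difference was 0.38 (-0.02 over all genes). Without untreated KO array 1, 14 passed. The comparisons share no array, and 20 members rose in both, which is 83.3% of the 24 in WT and 90.9% of the 22 in KO. Over all genes the shared calls made up 57.2% and 49.1%. The difference of the responses, KO minus WT, passed for no member by limma, with a smallest adjusted p of 0.114 (Ccne1, -0.45 ± 0.13), where 1.1% of genes were called higher and 0.784% lower. An unadjusted p under 0.05 was reached by 5 members and by 1635 of 12747 genes. Its median was -0.11 over the members and -0.01 over all genes.

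The other genes of replication followed in smaller numbers, and mitosis genes went the other way. Of 65 other replication genes, 24 rose and 7 fell in WT (median 0.15), among them E2f7 (1.10) and E2f8 (0.87), which encode repressing E2F factors, Clspn (1.02), which encodes a checkpoint mediator at the fork, and the exonuclease gene Exo1 (0.82). In KO 20 rose and 6 fell, led by Orc1l (1.34), the array's name for the gene of the largest origin recognition subunit, E2f7 (0.96), Clspn (0.84) and Wdhd1 (0.76), which couples helicase and polymerase. Of 30 mitosis genes, 1 rose and 18 fell in WT (median -0.40), and none rose and 15 fell in KO (median -0.35). The mitotic kinase genes Aurka (-1.31 in WT, -1.23 in KO) and Plk1 (-1.24 and -1.60) fell most. Markers of other cells also moved in WT: macrophage and dendritic cell genes fell in 10 of 11 tested, with a summed log2 level over the 13 on the array of 105.3 to 106.3 in irradiated against 120.1 to 121.1 in untreated thymocytes. Granulocyte genes fell in 9 of 11 in WT (1 rose), NK and cytotoxic genes in 6 of 8 and B cell genes in 7 of 8 in both genotypes, and defining T cell genes in 6 of 11 in WT. In KO, macrophage and dendritic cell genes fell in 9 of 11, with a summed level of 115.2 to 119.1 in irradiated against 127.0 to 127.3 in untreated thymocytes. Defining T cell genes fell in 7 of 11 there (1 rose), erythroid and megakaryocyte genes in 5 of 7 and gamma delta T cell genes in 4 of 5. The part of other cells in the members' rise was not tested. Irradiated and untreated arrays carry separate ranges of file numbers in the labels, and whether they were processed together is not stated there.

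Split by promoter, 10 of the 12 members with an E2F match rose in WT and 10 of the 19 without, with median differences of 0.56 and 0.26. In KO 9 of the 12 and 9 of the 19 rose, with medians of 0.47 and 0.31. Mcm5, Mcm6 and Cdc6 rose in both genotypes, but they were shown above because they rose, so their rise is not a result of this split. Not every member with a match rose: Cdt1 and E2f2 did not pass in either. These counts describe the windows and were not tested.

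KO against WT in thymocytes asked what the lack of Gfi1 changed without a tumour. Replication genes were lower in KO. Of the 38 members, 5 fell and none rose in untreated thymocytes, where 5.49% of genes were lower and 6.79% higher. In irradiated thymocytes 15 fell and none rose, where 6.81% were lower and 8.12% higher. The members' median difference was -0.22 in untreated and -0.29 in irradiated thymocytes, against -0.02 and -0.03 over all genes. All 38 differences were negative in irradiated thymocytes, and for 25 of 38 every irradiated KO array lay below every irradiated WT array, as for 13.44% of genes. In 1 fit of all 20 arrays no member passed in either state, and without the 2 low tumour arrays in that fit 0 passed in untreated and 2 in irradiated thymocytes.

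Ccne2, E2f2, Tk1 and Tyms fell in both states, which is 80% of the 5 and 26.7% of the 15, against 38.7% and 31.2% for the shared falls of all genes. In untreated thymocytes these calls were lost under 9 (Tyms), 6 (Tk1), 5 (Ccne2) and 4 (E2f2) of 12 alternatives. The replicate block was among those that ended the call of Tyms. In irradiated thymocytes they were lost under 1 (Tyms), 1 (Tk1), 7 (Ccne2) and 2 (E2f2) of 14. Tyms had 10.39 and 10.22 in untreated KO against 10.73 and 10.67 in untreated WT (-0.39 ± 0.12, adjusted p = 0.046). Irradiated KO thymocytes had 10.80, 10.52 and 10.75 against 11.23, 11.45 and 11.24 in irradiated WT, the largest fall there (-0.62 ± 0.10, adjusted p = 2.83e-04). Tk1, which makes thymidine monophosphate by salvage, fell alike, by 0.51 ± 0.14 and 0.49 ± 0.11. It read 9.56 and 9.52 in untreated KO against 10.04 and 10.06 in untreated WT, and 10.05, 9.58 and 9.81 in irradiated KO against 10.30, 10.17 and 10.44 in irradiated WT thymocytes. In both states no KO array of Tyms or Tk1 reached the lowest WT array.

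Of the S phase regulators, E2f2 had 10.59 and 10.74 in untreated KO against 11.36 and 11.17 in untreated WT (-0.60 ± 0.12, adjusted p = 0.00282), and in irradiated thymocytes its difference was -0.41 ± 0.10. Ccne2, with 9.50 and 9.49 in untreated KO against 10.20 and 10.004 in untreated WT thymocytes, had -0.60 ± 0.15, and -0.42 ± 0.13 in irradiated ones. Ccne1 fell in irradiated thymocytes (-0.30 ± 0.09, adjusted p = 0.0248), a call lost under 6 of 14 alternatives including the replicate block. It had 0.15 ± 0.10 in untreated ones, and the test between the states did not pass (adjusted p = 0.114). E2f1 passed in neither, with -0.16 ± 0.12 and -0.17 ± 0.10. The fifth fall in untreated KO was Prim1, at 9.46 and 9.55 against 10.21 and 10.09 in untreated WT (-0.65 ± 0.13, adjusted p = 0.00259). Irradiated KO thymocytes had 10.12, 9.81 and 9.95 for it, against 10.25, 10.47 and 10.11 in irradiated WT (-0.32 ± 0.11, adjusted p = 0.0569).

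In irradiated thymocytes nucleotide supply genes fell in 4 of 5: Tyms, Tk1, Rrm1 (-0.48 ± 0.11) and Dut (-0.43 ± 0.11), with Rrm2 at -0.26 ± 0.10 (adjusted p = 0.0935). Rrm1 read 11.05, 11.02 and 11.16 in irradiated KO against 11.40, 11.85 and 11.42 in irradiated WT thymocytes. Of the helicase genes Mcm2 (-0.38 ± 0.11), Mcm4 (-0.33 ± 0.09), Mcm5 (-0.30 ± 0.09) and Mcm6 (-0.34 ± 0.09) fell. Cdc6 (-0.47 ± 0.13), Pole (-0.34 ± 0.10), Uhrf1 (-0.37 ± 0.10) and Rpa1 (-0.29 ± 0.09) completed the 15. No clamp or loader gene passed, and Pcna had -0.12 ± 0.09. In untreated thymocytes Mcm2, Mcm3 and Mcm4 had differences from -0.00 to 0.07, with standard errors up to 0.14. Without irradiated WT array 2, the highest of its group for 28 of 38 members, 5 members passed in irradiated thymocytes. In untreated ones 1 to 3 passed when any of the 4 arrays was left out.

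**Figure D5:**
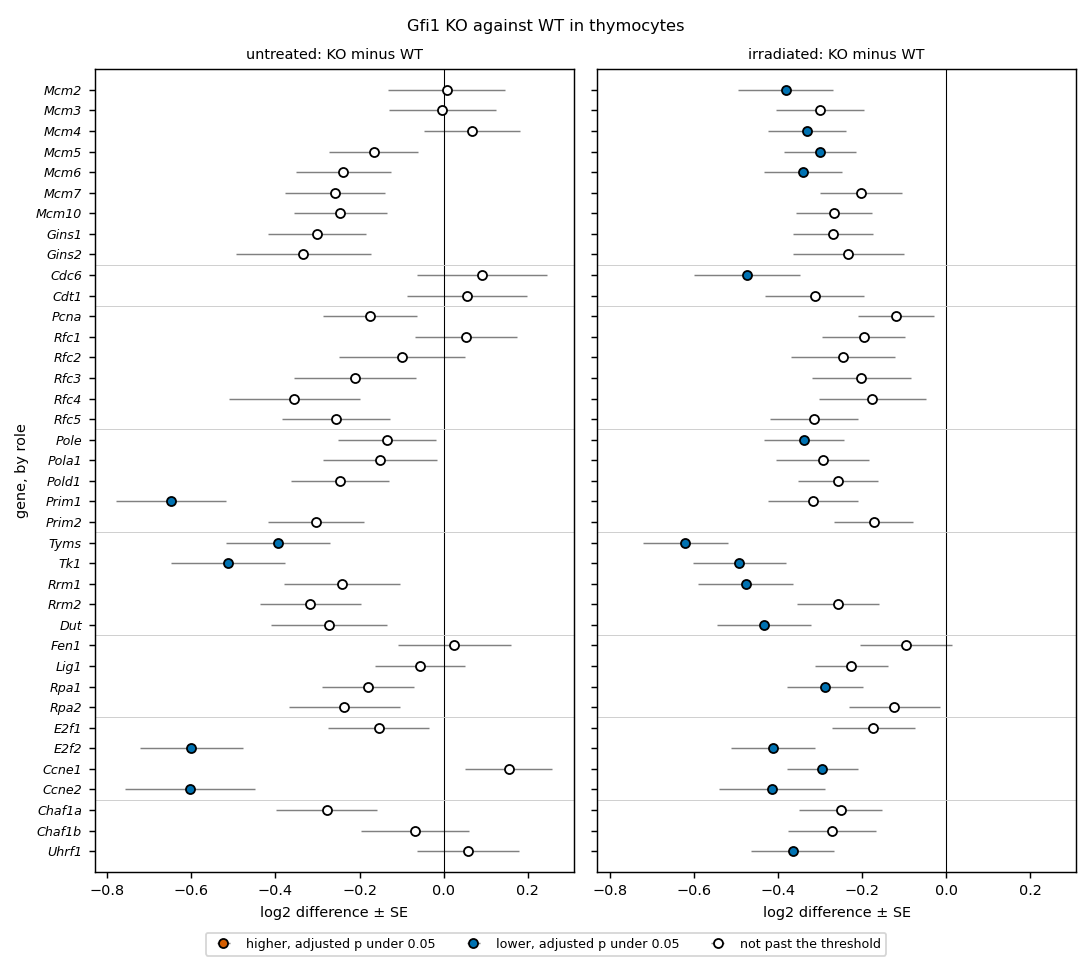
Points give each member's log2 difference between KO and WT with its standard error in untreated (left) and irradiated (right) thymocytes, ordered by role. Every point lies left of 0 in irradiated thymocytes, from -0.62 (Tyms) to -0.10 (Fen1), and Prim1, E2f2 and Ccne2 lie furthest left in untreated ones.

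Other replication genes moved the same way: 7 of 65 fell and none rose in untreated KO, with Cdk2 (-0.52), the cyclin E partner, Cdc7 (-0.54), the kinase that activates the helicase, Dtymk (-0.46), which acts after Tk1 and Tyms, and Gmnn (-0.48), which encodes the CDT1 inhibitor geminin. In irradiated KO 18 fell and 2 rose, among them E2f8 (-0.58), the helicase-nuclease gene Dna2 (-0.56), Exo1 (-0.45) and, as a rise, Orc1l (0.62). Mitosis genes fell in 3 of 30 untreated and 6 of 30 irradiated, and none rose. Markers of other cells were higher on the same KO arrays. Macrophage and dendritic cell genes rose in 8 of 11 tested in untreated and 9 of 11 in irradiated thymocytes. Their summed level over the 13 on the array was 127.0 to 127.3 in untreated KO against 120.1 to 121.1 in untreated WT, and 115.2 to 119.1 in irradiated KO against 105.3 to 106.3 in irradiated WT. NK and cytotoxic genes rose in 5 of 8 and 8 of 8, B cell genes in 5 of 8 and 6 of 8 (1 fell in irradiated), and genes of mature single-positive thymocytes in 7 of 11 in each (1 fell in irradiated). Granulocyte genes fell in 8 of 11 in untreated and 7 of 11 in irradiated KO thymocytes (1 rose in irradiated). Defining T cell genes fell in 1 of 11 and 3 of 11. The part of other cells in the members' falls was not tested.

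WT tumours against WT untreated thymocytes set transformed cells beside the normal ones. Both comparisons use the same 2 untreated WT arrays, so their values are given side by side. In WT ENU tumours 13 members rose and 1 fell, where 9.87% of genes were higher and 10.2% lower, and the median difference was 0.88 (0.01 over all genes). In WT Notch tumours none rose and 1 fell, where 2.14% were higher and 5.54% lower, with a median of 0.48 (-0.00 over all genes), and 31 of 38 differences were positive. The fit shares its spread over all 20 arrays. Without the 2 low tumour arrays, chosen after seeing the data, 31 rose and 1 fell in ENU and 22 rose and 1 fell in Notch tumours, with the same medians. Calls over all genes grew as well in that fit. Of 13349 genes, 2341 rose and 2149 fell in ENU and 1021 rose and 1709 fell in Notch tumours. The rises of Pole, Pola1, Mcm3 and Lig1 in ENU tumours and the falls of E2f2 in both types passed there too. Leaving out 1 array left 2 calls (without untreated WT array 1), 3 (without untreated WT array 2) or 6 (without WT ENU tumour 3) in ENU tumours, and none in Notch tumours without WT Notch tumour 1 or either untreated WT array.

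Pole led the rises in ENU tumours, at 11.03, 11.24 and 11.44 in WT ENU tumours against 9.33 and 9.21 in untreated WT thymocytes (1.97 ± 0.41, adjusted p = 0.0041). WT Notch tumours had 10.91 and 10.56 for Pole (1.47 ± 0.45, adjusted p = 0.0581). Pola1 rose by 1.49 ± 0.41 in ENU tumours, where it read 9.73, 9.98 and 10.33 against 8.60 and 8.45 in untreated WT thymocytes. In Notch tumours it read 9.99 and 10.07 (1.504 ± 0.45, adjusted p = 0.0543). Mcm3 and Lig1 followed in ENU tumours, by 1.24 ± 0.38 and 1.23 ± 0.27. Mcm3 read 10.89, 11.22 and 11.50 in WT ENU tumours against 10.03 and 9.89 in untreated WT, and Lig1 10.70, 10.73 and 10.97 against 9.65 and 9.50. The other rises in ENU tumours were Mcm4, Mcm5, Mcm10, Cdc6, Rfc1, Pold1, Tk1, Rrm1 and Chaf1a, with differences from 0.75 to 1.19.

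E2f2 was the member that fell in each tumour type. It read 9.95, 10.64 and 10.13 in WT ENU tumours and 10.05 and 10.52 in WT Notch tumours, against 11.36 and 11.17 in untreated WT thymocytes. The falls were 1.02 ± 0.23 (adjusted p = 0.00745) in ENU and 0.98 ± 0.26 (adjusted p = 0.032) in Notch tumours. E2f1 read 9.78, 9.41 and 9.63 in WT ENU tumours and 9.55 and 9.18 in WT Notch tumours against 8.64 and 8.78 in untreated WT thymocytes, with differences of 0.89 ± 0.33 and 0.65 ± 0.36 that did not pass. Pcna (0.47 ± 0.22 in ENU, 0.41 ± 0.24 in Notch tumours), Rrm2 (0.52 ± 0.37 and -0.02 ± 0.40) and Ccne2 (0.39 ± 0.49 and -0.05 ± 0.53) did not pass in either.

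Of the 65 other replication genes, 20 rose and 2 fell in ENU and 2 rose and 2 fell in Notch tumours. Dnmt1 (1.13 in ENU, 0.97 in Notch), the maintenance methyltransferase that UHRF1 recruits, and the E2F factor gene E2f3 (1.56 and 1.30) rose in both. Rbl2 (-0.87 and -0.94), which encodes the RB relative p130 of resting cells, and Dck (-1.22 and -0.93), deoxycytidine kinase, fell in both. Mitosis genes rose in 14 of 30 in ENU tumours and in 1 of 30 in Notch tumours, and none fell. Defining T cell genes fell in 1 of 11 in ENU and 2 of 11 in Notch tumours, with medians of -0.94 and -1.11. Genes of mature single-positive thymocytes fell in 6 of 11 (median -1.03) and 1 of 11 (-0.63), and granulocyte genes in 7 of 11 in each. Double-negative thymocyte genes rose in 4 of 11 (0.39) and 2 of 11 (-0.17). The part of cell types in these differences was not tested.

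KO against WT within the tumours gave no called member. In ENU tumours all 38 differences were negative, with a median of -0.75 (-0.07 over all genes) and a smallest adjusted p of 0.347 by limma. None of the genes tested passed there (0% higher and 0% lower), and an unadjusted p under 0.05 was reached by 10 of 38 members and 1782 of 13025 genes. Cdc6 shows the pattern, with 8.34, 9.26 and 9.65 in labelled KO ENU tumours against 9.54, 9.95 and 9.93 in WT ENU tumours. Labelled KO tumour 1 was low and the other two were closer to WT. Tyms read 10.39, 11.50 and 11.14 in labelled KO against 11.80, 11.99 and 11.65 in WT ENU tumours. Without both low arrays the median was -0.40, 37 of 38 differences were negative, none passed (smallest adjusted p 0.179) and 17 had an unadjusted p under 0.05, as had 1843 of 12717 genes. Summed levels of 6 of 11 cell type marker lists did not overlap between labelled KO and WT ENU tumours. The 10 NK and cytotoxic genes summed to 85.2 to 90.3 in labelled KO against 75.6 to 80.7 in WT, and 11 genes of mature single-positive thymocytes to 116.8 to 119.9 against 103.2 to 108.9 in WT. The 13 macrophage and dendritic cell genes summed to 127.8 to 148.4 in labelled KO against 123.7 to 127.1 in WT, and 11 defining T cell genes to 116.3 to 127.6 against 128.9 to 133.6 in WT. Erythroid and megakaryocyte genes summed to 70.7 to 75.7 in labelled KO against 67.2 to 68.2 in WT, and thymic stroma genes to 95.5 to 98.7 against 94.2 to 94.8 in WT. Their part in the result was not tested.

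In Notch tumours 36 of 38 differences were negative, with a median of -0.44 (-0.05 over all genes), none passed (smallest adjusted p 0.828) and none had an unadjusted p under 0.05, against 780 of 13025 genes. Of all genes 0% were higher and 0.0154% lower. For some members the 2 KO arrays lay on opposite sides of WT. Mcm5 read 11.89 and 10.64 in KO against 11.68 and 11.59 in WT Notch tumours, and Rrm2 12.06 and 10.72 in KO against 11.72 and 11.82 in WT. Others did not: for Uhrf1 KO Notch tumour 1 lay between the WT arrays, and for E2f2 both KO arrays lay below both WT arrays. Without KO Notch tumour 2, and labelled KO ENU tumour 1, the median turned to 0.18, with 33 of 38 differences positive and none past the threshold (smallest adjusted p 0.72). Without KO Notch tumour 1 instead, so that the array with B cell markers stood alone for KO, the median was -1.07. The difference in KO effect, Notch minus ENU, passed for none (smallest adjusted p 0.68, 1 unadjusted p under 0.05, 0% of genes called either way), with a median of 0.25, and 0.56 without both arrays. Markers moved on these arrays too: the summed level of the 9 B cell genes was 71.5 to 112.6 in KO against 66.9 to 73.9 in WT Notch tumours, and that of 11 defining T cell genes 99.1 to 126.6 in KO against 115.8 to 134.6 in WT.

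Single members showed the same 2 arrays in different degrees. Uhrf1 had 11.08 and 9.42 in KO against 11.09 and 10.84 in WT Notch tumours, and 9.42, 11.01 and 11.01 in labelled KO against 10.98, 11.34 and 11.48 in WT ENU tumours. Gins2 had 10.46 and 9.55 in KO against 10.21 and 10.23 in WT Notch tumours, and 9.41, 10.05 and 10.20 in labelled KO against 10.57, 10.44 and 10.73 in WT ENU tumours. For both genes each of the 2 arrays lay below every other tumour array of its type. Pcna was lower on them too, with 12.70 and 11.97 in KO against 12.60 and 12.95 in WT Notch tumours, and 12.08, 12.94 and 12.67 in labelled KO against 12.89, 12.73 and 12.86 in WT ENU tumours. Cdt1 had 10.68 and 9.91 in KO against 10.85 and 10.70 in WT Notch tumours, and 10.30, 10.63 and 10.87 in labelled KO against 10.94, 10.84 and 11.31 in WT ENU tumours.

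The cyclin E genes and E2f2 separated the 2 low arrays. Ccne1 had 10.29 and 10.38 in KO against 10.33 and 10.38 in WT Notch tumours, and 9.26, 10.46 and 10.49 in labelled KO against 9.89, 10.73 and 10.40 in WT ENU tumours. Ccne2 had 9.92 and 9.61 in KO against 9.69 and 10.41 in WT Notch tumours, and 7.98, 10.18 and 10.39 in labelled KO against 10.67, 10.44 and 10.35 in WT ENU tumours. Both were low on labelled KO ENU tumour 1, while KO Notch tumour 2 lay close to the lower WT Notch array or above it. E2f2 had 9.82 and 9.89 in KO against 10.05 and 10.52 in WT Notch tumours, and 8.87, 9.79 and 9.33 in labelled KO against 9.95, 10.64 and 10.13 in WT ENU tumours. Every array labelled KO lay below every WT array of its tumour type for E2f2, though the differences of -0.43 ± 0.33 and -0.91 ± 0.27 did not pass (limma adjusted p = 0.864 and 0.347). Such a separation was seen for 2 of 38 members and 17.38% of genes in Notch tumours. In ENU tumours it was seen for 23 of 38 members and 18.96% of genes.

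WT Notch against WT ENU tumours compared tumours of ENU-treated mice with and without the Notch transgene. No member passed (smallest adjusted p 0.74, none with an unadjusted p under 0.05 against 967 of 13025 genes), where 0.0154% of genes were higher and 0.00768% lower. Still, 35 of 38 differences were negative, with a median of -0.33 (-0.04 over all genes), and for 22 of 38 both Notch arrays lay below all ENU arrays, as for 21.8% of genes. Rrm2 read 11.72 and 11.82 in Notch against 11.94, 12.56 and 12.42 in ENU tumours, without overlap. Mcm2 overlapped, with 11.92 and 11.29 in Notch against 11.59, 11.61 and 12.12 in ENU tumours. Without the 2 low arrays none passed either (smallest adjusted p 0.191), and 13 had an unadjusted p under 0.05.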

How the data were processed

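Expression was measured on 20 arrays (groups of 2 or 3) of total RNA, amplified by NuGEN Ovation Pico and biotin-labelled, per the labels' protocols. The deposited table of the authors holds 182058 probe sets with values from 3.37 to 15.01, read as log2 signal; the sources used here do not give log base, background correction, normalization or summary. Array medians were 9.08 to 9.27, and arrays of 1 group correlated between 0.87 and 0.99 over probe sets. The number of arrays limits the precision.

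Platform annotation names 1 gene for 167016 probe sets, several for 3388 and none for 11654, and only the first were used (19607 genes). Probe sets were centred on their own 20-array means. A gene's value on an array is the median over its centred probe sets plus the mean of their means. A gene was tested if above the 40th percentile of its array in at least 2 arrays of the fit. Tests used limma 3.58.1 (lmFit, eBayes) in R 4.3.3 with 1 mean per group: 10 thymocyte arrays (12747 genes), 10 tumour arrays (13025) or all 20 for tumours against thymocytes (13520), checked on simulated data. There were 11 comparisons. Python 3.11.15 and matplotlib 3.10.9 drew the figures.

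Members and lists were chosen with earlier results of these data known. Every member is covered by role. Per-array values are given for Pcna, Mcm2, Mcm5, Cdc6, Cdt1, Gins2, Rrm2, Tyms, E2f1, E2f2, Ccne1, Ccne2 and Uhrf1 where a comparison turns on them, and for up to 4 largest called rises and falls per comparison, and up to 4 other replication genes with the smallest p are named. Mitosis genes and markers are described by count. Same-numbered arrays did not deviate together (r from -0.46 to 0.20), so no block was used. Alternatives were a further quantile normalization, mean for median over probe sets, brighter probe sets only, no filter, trend and robust variance in limma, other sets of arrays, a replicate block and leaving out each array.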

Additional observations from a re-analysis of the deposited data

Results flagged for a closer look

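The irradiation response of Cdkn1a was smaller in KO than in WT thymocytes. The test of the difference itself gave -0.91 ± 0.18 (KO minus WT, limma adjusted p = 0.0125), with Cdkn1a at 10.23 to 10.61 in irradiated KO against 8.51 to 8.77 in untreated KO, and at 10.84 to 11.01 in irradiated WT against 8.12 to 8.30 in untreated WT thymocytes. Cdkn1a is not a member, and no member's response differed between genotypes by that test.

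Gfi1 as a gene, the median over its 8 probe sets, differed by -1.57 in the same test (KO minus WT of irradiated minus untreated). The KO groups differ in opposite directions by probe set: set 2 averaged 12.73 in irradiated KO and 5.64 in untreated KO thymocytes, set 7 averaged 7.18 in irradiated KO and 11.09 in untreated KO. This value is therefore not read as a response to radiation, and whether both KO groups carry the same Gfi1 allele is not stated in the labels.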

How the results depend on the processing

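No count or median changed direction except in Notch tumours and in the difference of KO effects, but several alternatives ended some of the 46 calls of members named: 1 with quantile normalization, 3 with the mean of probe sets, 3 with brighter probe sets, 6 with no filter and 7 with the replicate block. Cdc6 in WT ENU tumours against thymocytes was lost under 9 of 13 alternatives, these 5 included. With all 20 arrays in 1 fit, tumour and thymocyte arrays share 1 spread. In that fit 0 members passed for irradiation in WT (25 in the thymocyte fit) and irradiation in KO (23). For KO against WT, 0 passed in untreated (5) and 0 in irradiated thymocytes (15), and 3 in ENU tumours (0 in the tumour fit). The members' shared level had a pooled standard deviation within groups of 0.507 over tumour and 0.0738 over thymocyte arrays, which enters no test. In 1 fit of the 18 arrays other than the 2 low ones, chosen after seeing the data, 0 passed for KO in untreated and 2 for KO in irradiated thymocytes. For WT ENU tumours against untreated thymocytes (14), 28 passed with the 2 groups alone, 32 without both low arrays and 8 with a replicate block. For WT Notch tumours (1), 18 passed with the 2 groups alone, 23 without both low arrays, 4 after further quantile normalization and 2 with brighter probe sets. Without both low arrays, calls over all genes also grew. In ENU tumours 2341 were higher and 2149 lower (1335 and 1378 in the main fit). In Notch tumours 1021 were higher and 1709 lower (289 and 749). For the other alternatives the members' counts are given without the calls over all genes. Under the replicate block no other count moved by over 1.5 times. Leaving out 1 array gave 14 (without untreated KO array 1) to 24 passing members for irradiation in KO, 1 to 3 for KO in untreated, 5 to 17 for KO in irradiated thymocytes, 0 to 5 for KO in Notch tumours (5 without KO Notch tumour 1), 2 (without untreated WT array 1) to 13 for WT ENU and 0 to 1 for WT Notch tumours against thymocytes. Medians ran from 0.35 to 0.51 for irradiation in WT, from -1.07 to 0.18 for KO in Notch tumours (0.18 without both low arrays) and from -0.38 to 0.92 for the difference in KO effect. The cause of these shifts was not tested. Of the 46 calls, 1, Pole in WT ENU tumours against thymocytes, passed under every alternative run.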
